A study of Mus musculus with 18 samples.

Results

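Induced pluripotent stem cells (iPSC) deficient in the DNA methyltransferases Dnmt3a and Dnmt3b were compared with V6.5, a mouse embryonic stem cell (ESC) line, on Agilent 2-colour expression arrays. All arrays with a deficient iPSC clone in Cy3 and V6.5 ESC in Cy5 were taken, which were 3 of the 18 arrays of the series and 6 of its 36 channels. Each of the clones 8, A6 and B2 was on 1 of them. The series as a whole set out to compare iPSC deficient in both enzymes with control iPSC lines. The other arrays held the same clones beside mouse embryonic fibroblasts (MEF; 3 arrays) or held the clones with signs of differentiation beside 4 control iPSC lines (12 arrays).

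The labels describe the clones only as Dnmt3ab deficient and give no allele, strain or sex. The iPSC were cultured on irradiated MEF feeders and then carried for 1 or 2 passages on gelatin, without new feeders, before RNA was taken. The V6.5 label names no alteration of either enzyme. Its RNA was a single reference in a single dye, so the spread between ESC cultures was not measured. The labels mark the V6.5 and MEF channels as not used in the statistics of the submitters' publication. A difference from V6.5 can come with the deficiency, with reprogramming, with genetic background, with sex or with the history of a line. These cannot be told apart in this comparison.

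Dnmt3a and Dnmt3b place methyl groups on CpG sites that carry none, Dnmt3l is their catalytically inactive cofactor, and Dnmt1 with Uhrf1 copies existing methylation after replication. Pluripotent cells in culture can be maintained without de novo methylation, and a set of germline genes, the Rhox homeobox genes of the X chromosome among them, is known to be held silent by promoter methylation. Pluripotency itself rests on Pou5f1, Sox2 and Nanog, with naive-state factors such as Zfp42, Klf4 and Tbx3 higher in ESC than in the later, primed epiblast state that Fgf5 marks.

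The promoters of 3 genes that differed are shown because DNA methylation acts on CG: Rhox5 and Syce1 were higher and Zfp42 lower in the deficient clones. Each is the 250 bases before the gene's start in RefSeq (build GRCm38.p6), written 5′ to 3′ on the gene's strand, with every CG in capitals.
Rhox5 (chrX:37754358-37754607, plus strand): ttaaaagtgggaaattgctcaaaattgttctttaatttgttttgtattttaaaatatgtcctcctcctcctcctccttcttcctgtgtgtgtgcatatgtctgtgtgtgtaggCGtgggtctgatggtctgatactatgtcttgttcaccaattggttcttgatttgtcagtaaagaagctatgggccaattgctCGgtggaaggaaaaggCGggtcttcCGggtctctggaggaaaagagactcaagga
Zfp42 (chr8:43307010-43307259, minus strand): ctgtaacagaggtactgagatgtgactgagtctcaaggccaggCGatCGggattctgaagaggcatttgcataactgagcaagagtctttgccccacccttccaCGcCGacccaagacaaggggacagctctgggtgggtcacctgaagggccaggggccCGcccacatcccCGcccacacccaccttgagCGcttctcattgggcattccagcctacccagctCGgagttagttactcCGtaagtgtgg
Syce1 (chr7:140787855-140788104, minus strand): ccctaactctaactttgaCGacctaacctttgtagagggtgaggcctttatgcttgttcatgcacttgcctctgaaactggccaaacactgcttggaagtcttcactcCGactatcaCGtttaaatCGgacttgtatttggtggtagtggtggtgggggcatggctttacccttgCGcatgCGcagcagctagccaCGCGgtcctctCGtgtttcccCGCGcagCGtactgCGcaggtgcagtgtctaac

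The motif searched was CG, which reads the same on both strands. The Rhox5 window held 4 CG, the Zfp42 window 9 and the Syce1 window 13, and 37.8%, 59.7% and 68.5% of all promoters had fewer. At least 1 CG was present in 94.7% of the 14878 tested genes with a promoter in the table, which were 59.6% of all genes tested. At least 10 CG were present in 56.8% of them, in 63.4% of genes called higher and in 65.2% of genes called lower. Among genes called higher or lower by at least 1 log2 unit the shares were 46.2% and 59.6%. These differences were not tested. Methylation itself was not measured here.

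Values below are log2 ratios of deficient iPSC over V6.5 ESC, read within each array and with an estimate of the dye effect taken off. Where a standard error (SE) is given, it is from limma over all 18 arrays. Because V6.5 was always in Cy5, the dye effect came from the arrays with control iPSC in either dye. On those arrays each clone was in Cy5 beside a single control line, a different line for each clone, and otherwise in Cy3. No pair of clone and control line was read in both dyes, so the dye estimate can hold differences between clones and lines. Its SD over genes was 0.11 log2 units, and it exceeded the ratio in size for 121 called genes. Across genes it correlated at 0.273 (0.328 over called genes) with a dye estimate from the clones' own channels on the first scan day, which were read beside different partners. Channel levels are log2 intensities, not corrected for dye, and serve to compare a gene between channels, never one gene with another. Fewer cells of a type and less RNA per cell cannot be told apart in such bulk samples. Nothing in the labels says whether RNA came from separate cultures, so the tests measure the spread between arrays and clones.

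Of 24969 genes tested, 3543 (14.2%) were called at an adjusted p under 0.05: 1437 higher (5.76%) and 2106 lower (8.43%) in the deficient clones. Most differences were small, with a median size of 0.43 log2 units among called genes. Only 141 genes were called higher and 167 lower by at least 1 log2 unit. The median ratio over all genes was 0.01. Without clone A6 the call covered 1719 genes and without B2 1726, against 3084 without clone 8. Of the 71 named genes called, 63, 39 and 39 stayed called without clone 8, A6 and B2 in turn. With a few spots of extreme local background kept in the background correction, the calls were 879 higher and 466 lower, and 43 of the 71 named genes lost theirs, Rhox2a, Fgf5, Tbx3, Pax6, Sycp3 and Ddx58 among them. Zfp42, Dnmt3a, Rhox5, Lefty1, Lefty2 and Peg3 stayed called under that setting and without any 1 clone. The V6.5 levels correlated at 0.997 to 0.998 between the 3 arrays, across genes, which are not independent replicates. Clone 8 was on one slide, and A6 and B2 were on another, so slide and clone 8 cannot be told apart.

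The labelled identity held against its markers only in part. Of the pluripotency markers set for this check, Zfp42 and Dppa5a were called lower, as given below. The Dnmt3b part of the label had no check. The core factors Pou5f1, Sox2 and Nanog were not called, with ratios of -0.15 ± 0.0904, -0.11 ± 0.153 and -0.27 ± 0.302 (SE, n = 3 clones; limma adjusted p = 0.293, 0.715 and 0.617). Pou5f1 levels were 15.04, 15.09 and 15.06 in clones 8, A6 and B2 and 15.12 to 15.14 in V6.5, against 10.73 to 10.86 in MEF. Pou5f1 was called lower (-0.33, adjusted p = 0.0356) when clone and V6.5 were compared in the same dye, and Nanog (-0.35, adjusted p = 0.0404) with no dye term. Fibroblast markers were close to V6.5: Col1a1, the main fibrillar collagen, was at 12.52 to 12.59 in the clones, 12.34 to 12.41 in V6.5 and 18.28 to 18.44 in MEF. Over the 49 measured fibroblast and feeder genes the log2 of the summed level was 17.66 to 17.92 in the clones, 17.49 to 17.54 in V6.5 and 22.31 to 22.38 in MEF. Of these, 3 were higher (Ccl2, Twist1 and Acta2) and 2 lower (Mmp2 and Fstl1), a share of 10.2% beside 14.2% of all genes. All 49 were above background in at least 1 channel of both kinds of cell. Ccl2 lost its call without A6 (0.192) or B2 (0.156), Twist1 without A6 (0.108) or B2 (0.0519), and Fstl1 without B2 (0.123).

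Dnmt3a RNA was 5.4-fold lower in the deficient clones. The ratio was -2.74 in clone 8, -2.37 in A6 and -2.18 in B2, and the estimate was -2.43 ± 0.339 (adjusted p = 0.000186). Levels were 9.18, 9.36 and 9.64 in the clones and 11.9, 11.72 and 11.81 in V6.5, with no overlap, while MEF channels were at 9.7 to 9.72. The 3 Dnmt3a probes gave -2.79 to -1.37. Dnmt3b, the second enzyme named in the labels, was not lower: its single probe gave 0.17, 1.32 and 1.71, with an estimate of 1.07 ± 0.416 (adjusted p = 0.101). It was higher at adjusted p = 0.0397 without clone 8, and also in the same dye (1.17, adjusted p = 0.0477). The labels do not say which exons are lost, so a probe outside them checks nothing, and the Dnmt3b probe (chr2:153428204-153428263, build mm7, per the file headers) gave no check of that part of the label.

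Of the 33 measured genes of the methylation machinery, 3 were higher and 2 lower, Dnmt3a included, a share of 15.2% beside 14.2% of all genes. Uhrf1, which guides Dnmt1 to newly copied DNA, was higher by 0.56 ± 0.148 (adjusted p = 0.0193), with 0.38, 0.82 and 0.47 in the clones. Smchd1, a chromatin protein of the silent X, was at 0.33 (its probes gave -0.06 to 0.33) and the replication clamp Pcna at 0.2. Both calls depended on the dye estimate, which was 0.37 for Smchd1 and 0.28 for Pcna. Before it was taken off, the ratios in clones 8, A6 and B2 were 0.04, -0.19 and 0.03 for Smchd1. Those of Pcna were -0.12, -0.06 and -0.07. Zbtb38, which binds methylated DNA, was lower by 0.25. Dnmt1 itself was at 0.17 ± 0.116 (adjusted p = 0.361) and Dnmt3l at 0.40 ± 0.296 (adjusted p = 0.416). The call of Uhrf1 was lost without A6 (adjusted p = 0.156) or B2 (0.0581), and that of Smchd1 whichever clone was left out (0.0561 to 0.186).

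Zfp42 (Rex1), a zinc-finger gene used as a marker of naive pluripotency, had the smallest adjusted p of the pluripotency genes and was 6.03-fold lower. Its level was 13.48, 12.81 and 12.6 in clones 8, A6 and B2, against 15.48, 15.46 and 15.47 in the V6.5 channels beside them, and 6.7 to 7.01 in MEF. All clones lay well below V6.5 and well above MEF. The ratios were -2.09, -2.73 and -2.96, the estimate was -2.59 ± 0.208 (adjusted p = 7.32e-07), and a second probe gave -3.35.

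Of 42 measured core and naive pluripotency genes, 5 were lower and 2 higher, with a median of -0.11 beside 0.01 over all genes. Calls made up 16.7% of this list, near the 14.2% of all genes. Klf4, a naive-state Krüppel-like factor, was lower by 1.25 ± 0.292 (adjusted p = 0.00864), with -0.8, -1.37 and -1.6. The T-box factor Tbx3 was lower by 1.28 ± 0.374 (adjusted p = 0.0309), with -0.73, -1.28 and -1.84, and its probes ranged from -1.28 to -0.32. For both, the clone 8 ratio was the nearest to 0. Dppa5a, an RNA-binding protein abundant in ESC, was lower by 0.64, and Tfcp2l1, a factor of naive self-renewal, by 0.58. Lin28a, the let-7 regulator, was higher by 0.66 and Mycn by 0.59. Esrrb, an orphan nuclear receptor of the naive network, was at -0.43 (adjusted p = 0.0657) and Tdgf1, the Nodal coreceptor, at -0.14. Without A6 or without B2 only 1 of the 42 stayed called, and 10 were called without clone 8.

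Fgf5, the growth factor that marks the primed epiblast, was 6.77-fold higher, with a wide spread among the clones. Its level was 8.37, 9.99 and 11.2 in clones 8, A6 and B2 and 7.17 to 7.22 in V6.5, so that every clone was above V6.5. The ratios were 1.29, 2.91 and 4.07 and the estimate 2.76 ± 0.688 (adjusted p = 0.0133). This call was lost without A6 (adjusted p = 0.0688) or without B2 (0.121), and with the spots of extreme background kept (1.17, 0.366). Of the 26 primed and epiblast genes, 6 were higher and 2 lower (30.8% called, beside 14.2% of all genes), and the median was 0.31. Higher members included Lef1, the Wnt-responsive transcription factor (1.49 ± 0.411, adjusted p = 0.0232), Grhl2, an epithelial factor (1.36; its probes gave 0.08 to 1.36), and Pou3f1 (Oct6), a POU factor of the epiblast (1.15 ± 0.344, adjusted p = 0.0344). Pou3f1 was at 0.15 in clone 8, 1.5 in A6 and 1.8 in B2. Eomes and Wnt3, which act in mesoderm induction, were lower by 0.38 and 0.8. Wnt3 was well above background in only 1 of the 3 clone channels, and its probes gave -0.8 to -0.44. The Lef1 call was lost without A6 (0.0887) or B2 (0.152), that of Eomes without clone 8 (0.056) or B2 (0.17), and that of Wnt3 whichever clone was left out (0.0985 to 0.168). The number of primed genes called was 9 without clone 8, 3 without A6 and 2 without B2.

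Both Lefty genes, secreted inhibitors of Nodal that are themselves Nodal targets, were higher in every clone. Lefty2 was at 12.49, 12.17 and 12.65 in the clones and 9.9, 10.13 and 10.23 in V6.5, and its ratios were 2.32, 1.77 and 2.15 (estimate 2.08 ± 0.28, 4.23-fold, adjusted p = 0.000136). Lefty1 was at 14.32, 14.83 and 15.76 in the clones and 12.72, 12.97 and 13.11 in V6.5, with an estimate of 1.77 ± 0.27 (3.41-fold, adjusted p = 0.000413). Neither gene's clone channels overlapped with V6.5. Of 24 Nodal pathway genes, 4 were higher and none lower at this threshold, and the median was -0.02. The share called was 16.7%, near the 14.2% of all genes. The ligand Gdf1 was higher by 0.9 ± 0.233 (adjusted p = 0.0169). The ligand Nodal was at -0.1 (adjusted p = 0.717), the receptor Acvr2b at -0.08, the signal transducer Smad2 at 0 and its partner Foxh1 at -0.01. Cer1, another secreted inhibitor, was above background in no clone or V6.5 channel.

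**Figure D1:**
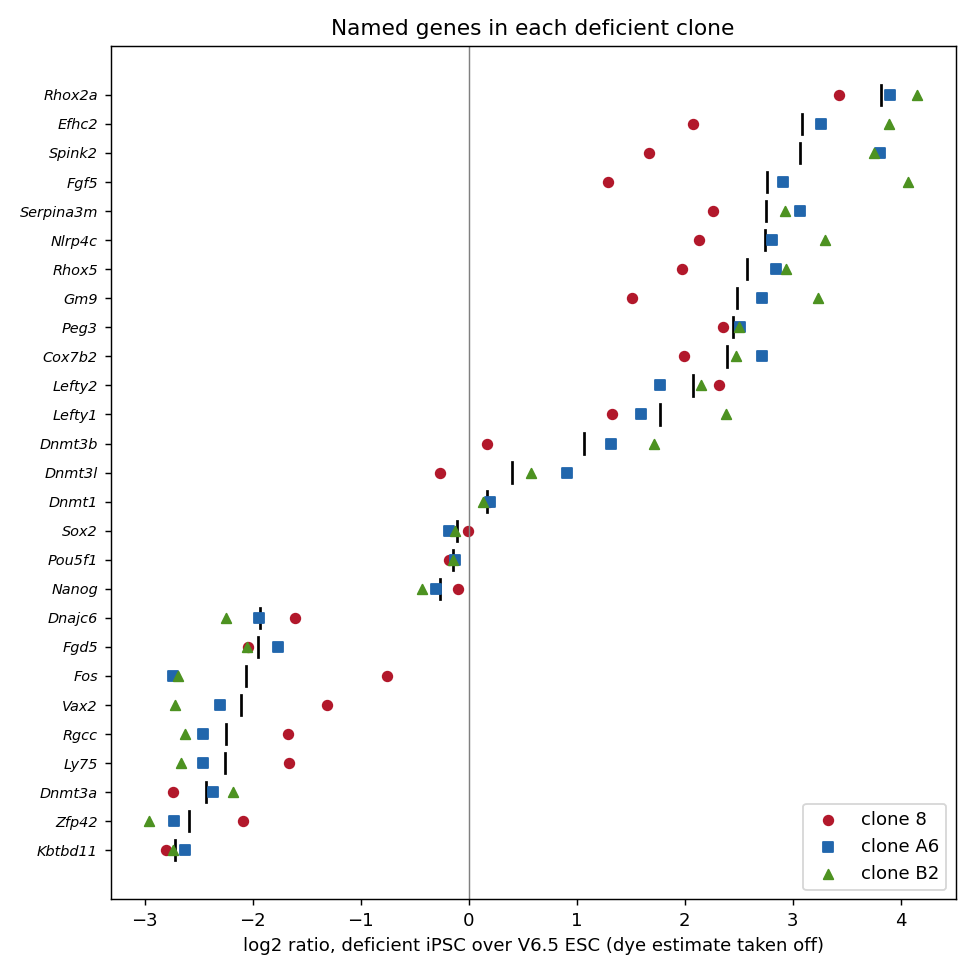
Each row is a gene and each point the log2 ratio of 1 deficient clone over V6.5 ESC (circle clone 8, square A6, triangle B2) with the dye estimate taken off; the bar is the limma estimate and the grey line is 0. Zfp42 and Dnmt3a lie below -2 in all clones, the Lefty genes above 1.3, and Fgf5 spreads from 1.29 to 4.07.

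Rhox5 (Pem), an X-linked homeobox gene of the reproductive tract whose promoter is known to be methylated in somatic cells, was 6-fold higher. Its level was 16.87, 17.79 and 17.8 in clones 8, A6 and B2 and 14.97, 15.02 and 14.94 in V6.5, against 10.39 to 10.71 in MEF. V6.5 thus already stood above MEF, and every clone stood above V6.5. The ratios were 1.97, 2.84 and 2.94 and the estimate 2.58 ± 0.539 (adjusted p = 0.0043). Rhox2a, of the same cluster, was 14.2-fold higher, the largest called rise under the naming rule. It was at 11.06, 11.92 and 12.37 in the clones and 7.68, 8.07 and 8.27 in V6.5, with a ratio of 3.82 ± 0.819 (adjusted p = 0.00518). With the spots of extreme background kept, it was at 2.63 and not called (adjusted p = 0.0665).

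Of 20 measured genes of the X-linked germline families, 7 were higher and none lower, with a median of 0.56. Calls made up 35% of the list, beside 14.2% of all genes. The log2 of their summed level was 17.17 to 18.2 in the clones, 15.45 to 15.5 in V6.5 and 12.25 to 12.55 in MEF. Rhox5 alone, at 16.87 to 17.8 in the clones and 14.94 to 15.02 in V6.5, made up most of that sum in both. The sum therefore largely repeats the Rhox5 result. The other 5 called were Magea1, Magea3, Magea5, Magea6 and Magea8, cancer-testis antigens. Magea6 was higher by 0.33 (adjusted p = 0.00611). Magea1, Magea3 and Magea8 were not well above background in any V6.5 channel, so no fold is given for them. They could hardly have been called lower, so their direction adds nothing to the count. Xlr4b and Xlr3c, of a lymphocyte-regulated family, had ratios of 4.4 (adjusted p = 0.0694) and 3.99 (adjusted p = 0.0799), and neither was called. Rhox6 was at 1.57 (adjusted p = 0.136) and Rhox13 at -0.71 (adjusted p = 0.311). Members of these families are near-copies of each other, so a probe may read more than 1 of them. Without B2, 2 of the 20 were called, and without A6, 5.

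The broader germline list held 8 higher and 9 lower genes of 75 (22.7% called, beside 14.2% of all genes), with a median of 0.06. Syce1, part of the central element of the synaptonemal complex, was at 13.01, 13.21 and 12.99 in the clones and 11.52, 11.65 and 11.48 in V6.5 (1.42 ± 0.203, adjusted p = 0.000235). Asz1, a piRNA-pathway protein, was higher by 1.21 ± 0.274 (adjusted p = 0.00718). The 1700013H16Rik gene was at 3.6 ± 1.07 (adjusted p = 0.0341), a call lost whichever clone was left out. Sycp3, an axis protein of meiotic chromosomes, was lower by 1.47 ± 0.325 (adjusted p = 0.00632), with -1.51, -1.58 and -1.33, and Meiob, a meiotic DNA-binding protein, by 1.25 ± 0.101 (adjusted p = 8.64e-07). Dazl and Ddx4, germ-cell RNA regulators, were at 0.19 (adjusted p = 0.903) and -0.16 (adjusted p = 0.426).

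Of the imprinted genes, 11.8% of those listed as paternally and 22.9% of those listed as maternally expressed were called, beside 14.2% of all genes. Parental origin was not measured. Some members, Trappc9 and Airn among them, may be listed under the wrong parent, so the shares describe the lists only. Peg3, a paternally expressed zinc-finger gene, was at 10.49, 11.02 and 11.04 in the clones and 8.18, 8.55 and 8.58 in V6.5. The ratios were 2.35, 2.51 and 2.5, and the estimate was 2.45 ± 0.243 (adjusted p = 7.66e-06), although its 3 probes ranged from 0.13 to 2.45. Of 34 genes listed as paternally expressed, 2 were higher (Peg3 and Ndn) and 2 lower (Inpp5f and Trappc9). The Ndn call was lost without B2 (0.0943) and the Inpp5f call without A6 (0.0529). Of 35 genes listed as maternally expressed, 5 were higher and 3 lower. Grb10, an adaptor that restrains growth-factor signalling, was higher by 1.5 ± 0.345 (adjusted p = 0.008), Cdkn1c, a cyclin-dependent kinase inhibitor, by 0.89 and the noncoding RNA H19 by 0.68. Slc22a18 was lower by 0.97 and its probes ranged from -0.97 to -0.11. The Grb10 call was lost without A6 (adjusted p = 0.0517) or B2 (0.0565).

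The remaining large rises under the naming rule were Efhc2, an EF-hand gene (3.08 ± 0.814, 8.45-fold, adjusted p = 0.0185), Spink2, a serine protease inhibitor (3.07, 8.42-fold), Serpina3m, a serpin (2.75, 6.74-fold), Nlrp4c, of the NLR family (2.74, 6.7-fold), Gm9 (2.48) and Cox7b2, a cytochrome c oxidase subunit isoform (2.39). Efhc2 and Gm9 lost their call without A6 (adjusted p = 0.0863 and 0.0929) or without B2 (0.118 and 0.125), and Serpina3m lost it without A6 (0.0544). The largest fall was Kbtbd11, a kelch-domain protein, at 8.39, 8.56 and 8.43 in the clones and 11.22 to 11.23 in V6.5 (-2.72 ± 0.313, adjusted p = 3.11e-05; its probes gave -2.72 to 0.02). Ly75, an endocytic receptor (-2.26; a second probe gave -0.7), Rgcc, a cell-cycle regulator (-2.25), and Vax2, a homeobox gene of the ventral eye (-2.11), were the next falls after Zfp42 and Dnmt3a. Fos, the immediate-early AP-1 subunit, was at -0.76 in clone 8 but -2.74 in A6 and -2.69 in B2, and its call (-2.06, adjusted p = 0.00601) was lost without A6 (0.0616) or B2 (0.0594). Fgd5 (-1.95), a guanine nucleotide exchange factor, and Dnajc6 (-1.93), an auxilin, differed from V6.5 by similar amounts in all clones.

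**Figure D2:**
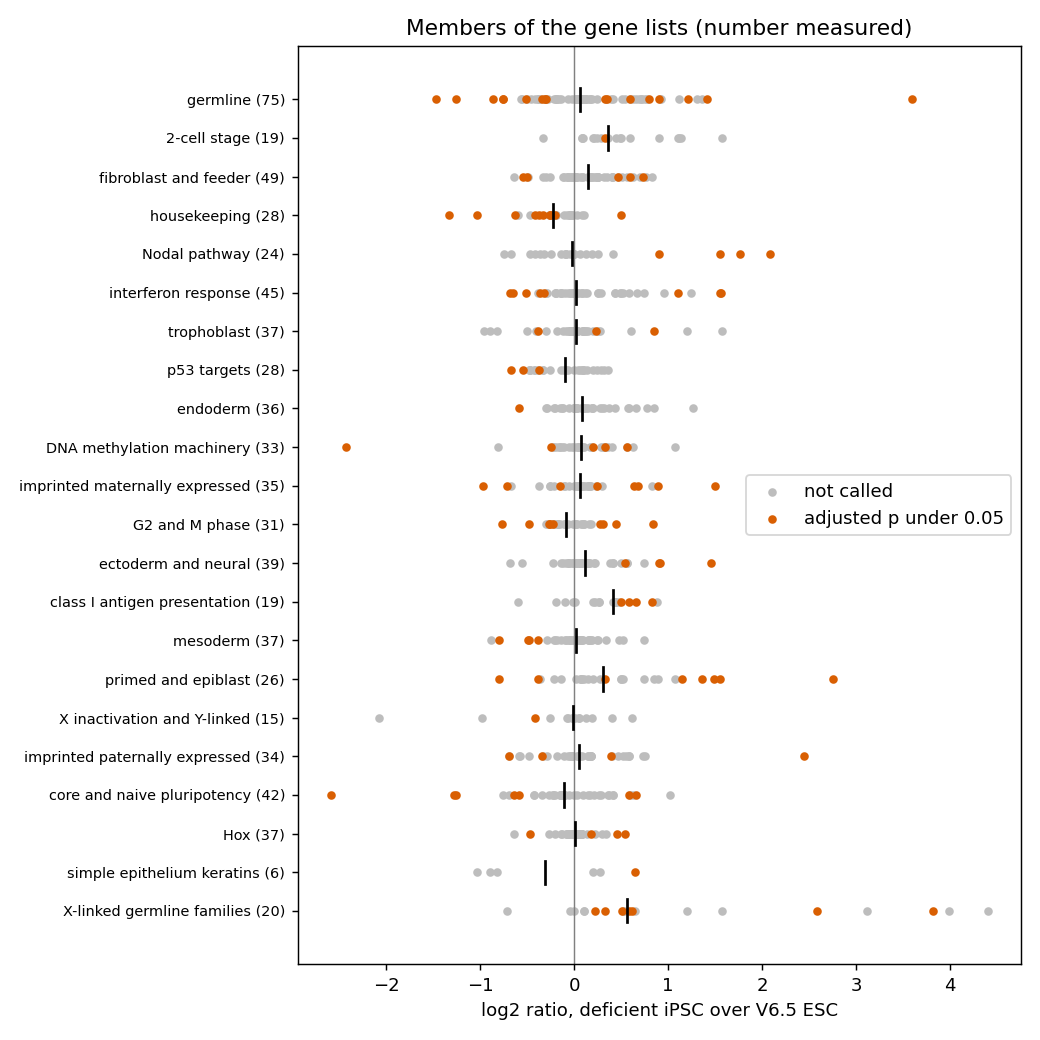
Each point is a gene's log2 ratio of deficient iPSC over V6.5 ESC, orange where the adjusted p was under 0.05 and grey otherwise, with the list median as a bar and the number measured in brackets. The X-linked germline families show 7 of 20 called, all higher, and the endoderm list 1 of 36. Among those 7, Magea1, Magea3 and Magea8 were not well above background in V6.5, so they could hardly be called lower.

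Against 14.2% of all genes, calls made up 2.78% of the endoderm list, 10.3% of the ectoderm and neural list, 10.8% of the mesoderm list and 8.11% of the trophoblast list. Of 36 endoderm genes, none was higher and 1 (Hhex, -0.59) was lower, a call lost without A6 (adjusted p = 0.127) or B2 (0.215). Of 39 ectoderm and neural genes, 4 were higher: Pax6, a neural and eye homeobox gene (1.46 ± 0.257, adjusted p = 0.00127; its probes gave 0.03 to 1.46), the neuronal tubulin Tubb3 (0.91), N-cadherin Cdh2 (0.9) and Olig2 (0.54). Of 37 mesoderm genes, 4 were lower, among them Cdx1 (-0.49) and Nkx2-5 (-0.48; not called without B2, adjusted p = 0.0619). Of 37 trophoblast genes, 2 were higher and 1 lower. Other lists are given by count and share alone. These were the Hox genes (3 higher and 1 lower of 37, 10.8%), 2-cell stage genes (1 higher of 19, 5.26%) and p53 targets (3 lower of 28, 10.7%). The keratins (1 higher of 6, 16.7%) and the G2 and M phase genes (4 higher and 5 lower of 31, 29%) were the others.

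Interferon-response genes were higher for 3 and lower for 5 of 45 (17.8% called, beside 14.2% of all genes). The guanosine triphosphatase Irgm1 (1.56 ± 0.46, adjusted p = 0.0327) and the chemokine Cxcl10 (1.55 ± 0.495, adjusted p = 0.0459) were at 0.41 and 0.24 in clone 8, against 1.92 and 1.92 in A6 and 2.34 and 2.5 in B2. Both calls were lost without A6 or B2 (adjusted p = 0.162 to 0.28). Ddx58, the RNA sensor RIG-I, was higher by 1.11 ± 0.184 (adjusted p = 0.000766; its probes gave 0.22 to 1.11), but was at 0.45 and not called (0.255) with the spots of extreme background kept. Of 19 class I antigen presentation genes, 4 were higher and none lower (21.1% called). They were led by the immunoproteasome subunit Psmb10 (0.83 ± 0.215, adjusted p = 0.0163), whose call was lost without A6 (0.0526) or B2 (0.128). Of 28 housekeeping genes, 9 were lower and 1 higher (35.7% called). Several had large dye estimates, such as 0.49 for Eef1a1 and 0.55 for Aldoa. Compared in the same dye, Rpl7 was at 0.03, -0.12 and -0.1 and Atp5b at 0.04, -0.18 and -0.11 in clones 8, A6 and B2. The other genes called lower stayed lower in every clone there. Actb, the gene called higher (0.5), was at -0.43, 0.04 and -0.04 in the same dye. Ywhaz, a 14-3-3 adaptor, was lower by 1.33 ± 0.0645 (adjusted p = 2.11e-09), although its probes ranged from -1.33 to -0.01.

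Among the clones, clone 8 stood apart: its Cy3 level differed by at least 1 log2 unit from that of A6 for 309 genes and from that of B2 for 398, against 75 genes between A6 and B2. Eif2s3y, a Y-linked translation factor gene, was at 12.35 in clone 8 but 7.37 in A6 and 7.34 in B2, while V6.5, a male line, was at 11.75 to 11.81. The ratios were 1.25, -3.69 and -3.77 (0.55, -4.38 and -4.47 before the dye estimate was taken off). Ddx3y, also Y-linked, was at 9.79 in clone 8, 7.1 in A6 and 7.13 in B2, and 9.15 to 9.21 in V6.5. Xist, the RNA of the inactive X, was at 8.2 to 8.36 in the clones and 8.18 to 8.4 in V6.5, with no difference called (0.13, adjusted p = 0.131). Clone 8 thus had Y-linked RNA near or above the V6.5 level and A6 and B2 had less of it, while the labels give no sex for any of them. Whether this difference bears on the X-linked results above was not tested.

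Several genes of the endoderm were among the widest ranges. The multiligand receptor Cubn was at 12.72 in clone 8, 8.46 in A6 and 8.98 in B2, against 10.35 to 10.77 in V6.5, and its partner Amn was at 11.25, 8.17 and 8.54, against 9.25 to 9.39. Srgn, a proteoglycan core protein, was at 13.85, 9.66 and 10.56, against 11.03 to 11.15 in V6.5. The water channel Aqp8 and the hexokinase-like Hkdc1 also had their highest level in clone 8, at 11.26 and 10.29. Ratios of Foxa2, Dab2 and Gata6, endoderm regulators, were 2.13, 1.94 and 1.33 in clone 8, -0.2, -0.79 and -0.75 in A6 and 0.63, -0.76 and -1.17 in B2. Of the other endoderm markers set to check identity, Sox17 was at 1.07, -0.1 and -0.06 in clones 8, A6 and B2. Gata4 differed less, at 0.25, -0.1 and -0.11. Afp was lowest in clone 8, at 0.18, 0.83 and 0.77, but was not well above background in any V6.5 channel. Krt18, another list member, was also lowest in clone 8, at -0.41, 0.3 and 0.72. The log2 of the summed level of the 36 endoderm genes was 17.39 in clone 8, 16.74 in both A6 and B2, and 16.95 to 17 in V6.5. None of these genes was called over the 3 clones. Gbp3, an interferon-induced guanylate-binding protein, ran the other way, at 8.03, 9.46 and 10.75 in clones 8, A6 and B2 and 7.63 to 8.48 in V6.5. With 1 array per clone, these differences are a description and have no test.

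**Figure D3:**
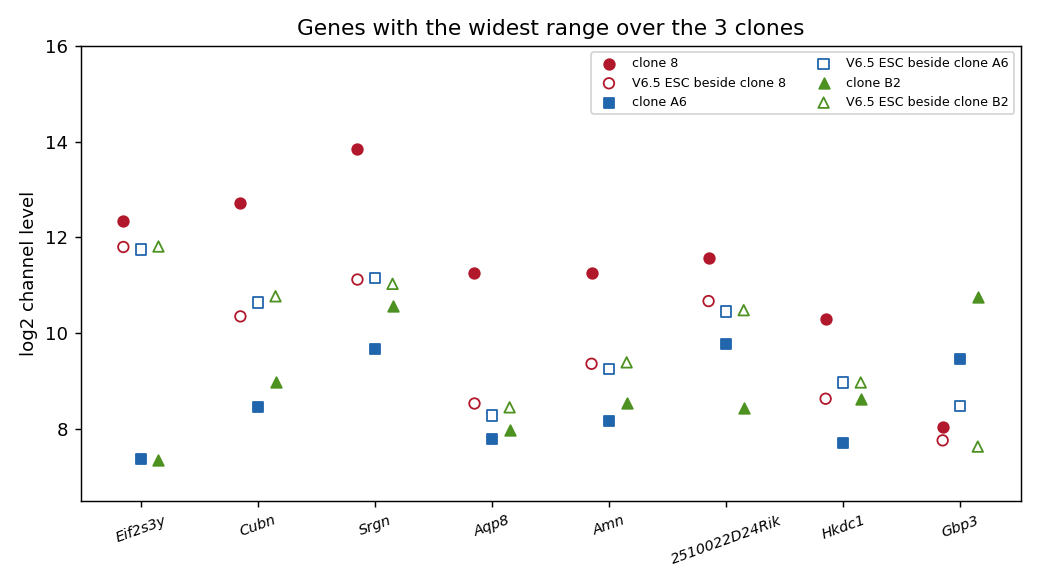
Log2 channel levels of the 8 genes with the widest range over the clones; filled symbols are clones 8 (circle), A6 (square) and B2 (triangle), and open symbols the V6.5 ESC channel of the same array. The V6.5 levels spread over 7.63 to 8.48 for Gbp3 and lie closer together for the others, and clone 8 lies above A6 and B2 for every gene but Gbp3.

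By chromosome, the median ratio stayed within 0.03 log2 units of 0 in every clone, leaving aside chromosomes 3, 8, X and Y. Chromosome 8 was at 0.0743 in clone 8 and -0.0392 and -0.0459 in A6 and B2. Chromosome 3 was at 0.0659 in B2 only, with 3.57e-05 in clone 8 and 0.0138 in A6. The X chromosome was at 0.00166, 0.0334 and 0.0888 in clones 8, A6 and B2. Of its 903 genes 81 were called higher and 36 lower, a share of 13% beside 14.2% of all genes. The files place only 6 genes on chromosome Y itself and put Eif2s3y and Ddx3y on unplaced Y sequence, so its median is not given.

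The ratio over V6.5 was set beside that of the same clones, once they showed signs of differentiation, over 4 control iPSC lines on the 12 other arrays. The difference between the ratios was called for 7062 genes (28.3%). Rhox5 had like ratios, 2.58 over V6.5 and 2.44 ± 0.269 over control iPSC, and their difference of 0.14 ± 0.539 was not called (adjusted p = 0.88). Dnmt3a was also low in both, at -2.43 and -1.71 ± 0.169 (difference -0.72 ± 0.339, adjusted p = 0.126). Rhox2a was at 3.82 and 2.67 (adjusted p = 0.328). A difference that was not called does not show that the ratios are equal.

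Zfp42 and the Lefty genes differed between the comparisons. Zfp42 was at -2.59 over V6.5 but 0.15 ± 0.104 over control iPSC, a difference of -2.74 ± 0.208 (adjusted p = 3.3e-07). Lefty1 was at 1.77 and -1.13 ± 0.135, and Lefty2 at 2.08 and -0.61 ± 0.14, with differences of 2.9 and 2.69 (adjusted p = 2.86e-06 and 6.52e-06). Fgf5 was at 2.76 and -1.83 ± 0.344 (difference 4.59 ± 0.688, adjusted p = 0.000149). Cubn, Srgn and Hkdc1 had ratios of 3.84, 4.71 and 3.98 over control iPSC, against 0.02, 0.78 and 0.44 over V6.5. The state of the clones, the partner cells and the scan day all differ between these sets of arrays, and their parts cannot be told apart.

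**Figure D4:**
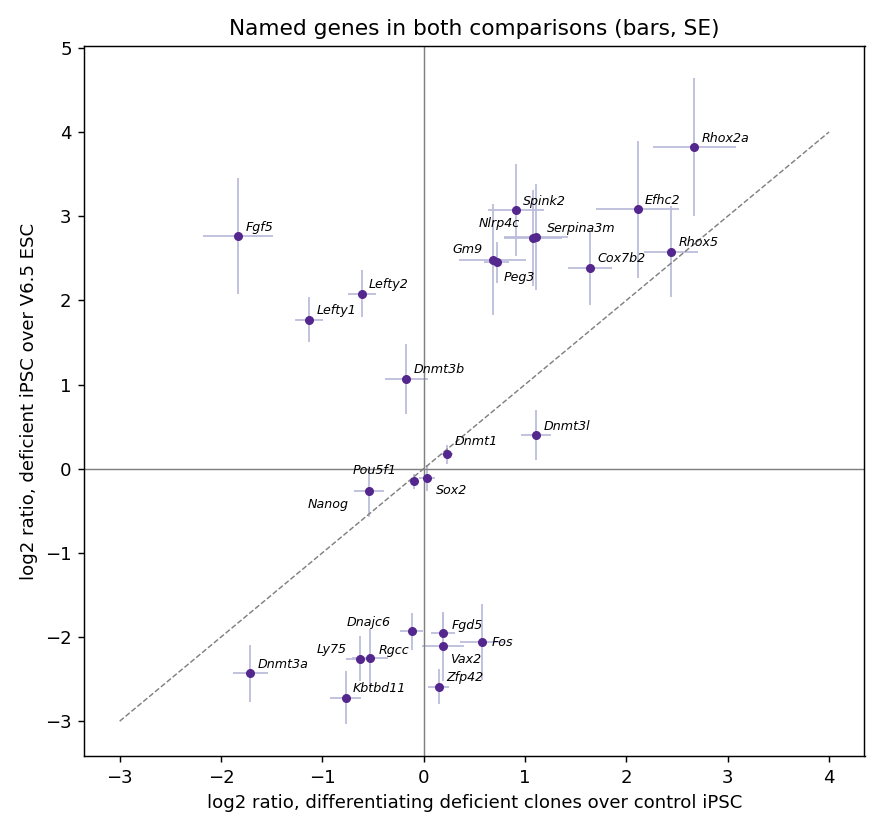
Each point is a named gene, with its log2 ratio in differentiating deficient clones over control iPSC on the x axis and in deficient iPSC over V6.5 ESC on the y axis; bars are SE, and the dashed line marks equal ratios. Rhox5 lies near the dashed line, Zfp42 near 0 on the x axis only, and Lefty1, Lefty2 and Fgf5 on opposite sides of 0.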

How the data were processed

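Mean spot intensities and local backgrounds of Cy5 and Cy3 were taken as deposited; per the file headers they come from Agilent Feature Extraction and are not normalized. The deposited value table held log2 ratios per probe, whose direction and scale were read from the values (correlation with the ratios computed here 0.976 to 0.999). The submitters' processing notes name limma, without a version. Probe positions are those of the files (mm7).

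Spots whose local background exceeded their signal by more than 100 were set aside, at most 10 of 45018 on an array. Signals were then background-corrected with normexp (offset 50) and loess-normalized within arrays in limma 3.58.1 (R 4.3.3; release 1.17.8 of data.table). The exclusion was added after first results had been seen: 9 spots on the A6 array and 10 on the B2 array, with Cy5 backgrounds up to 462000 against a median of 57.5, had raised the Cy5 noise estimate from 3.97 to 3790 and from 5.08 to 1910 and compressed the ratios. Outlier spots were left out, spots of a probe averaged, and a probe was kept (36965 of 41174) if a share of 0.5 or more of the channels of some kind of RNA was well above background. The brightest probe stood for a gene. Channel levels were Aquantile-normalized, which sets the average signal of all arrays alike, so a change of most RNAs cannot be seen. Names were updated through RefSeq accessions (14932 genes), symbols (2544) or synonyms (1274), and 6219 are those of the array files.

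A limma fit over 18 arrays had terms for the 3 kinds of partner and for dye, two-sided tests and Benjamini-Hochberg adjustment over all genes. Its SE pools all arrays, which reuse the same clones. Of the genes tested, 44 lacked a value on 1 of the 3 V6.5 arrays. On those arrays 73.9% to 78.9% of probes were well above background, no spot was saturated, and the number of arrays sets the precision. Simulated data with known changes served to test the scripts. Genes named were Dnmt1, Dnmt3a, Dnmt3b, Dnmt3l, Pou5f1, Nanog, Sox2, Zfp42, Rhox5, Lefty1 and Lefty2, the 10 largest rises and falls with all clones on 1 side, leaving out clone and accession names, up to 3 called members of each list, the 8 widest ranges, and X-inactivation and Y-linked genes; other list members are examples chosen after their values were seen, and some genes that the rule takes are not reported here. The arrays, gene lists and named genes were chosen with earlier results of these data known. Alternatives changed the dye handling, the normalization, the filters, the probe choice, the slide block and the clones.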

Additional observations from a re-analysis of the deposited data

Results flagged for a closer look

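Between the ratio over V6.5 ESC and that of the differentiating clones over control iPSC, Zfp42 (difference -2.74), Lefty1 (2.9), Lefty2 (2.69) and Dnmt3b (1.24) stood out, because the limma contrast of the difference was called for each, with adjusted p = 3.3e-07, 2.86e-06, 6.52e-06 and 0.0353. Dnmt3b was at 1.07 over V6.5 and -0.17 over control iPSC. Cell state, partner line and scan day differ between these arrays and cannot be told apart.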

How the results depend on the processing

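Calls over V6.5 numbered 3543 (1437 higher, 2106 lower). They rose to 5398 (2352 higher) with no dye term, and fell to 308 (141 and 167) when a log2 ratio of at least 1 in size was also asked for. Without clone 8 the calls were 3084 (1340 and 1744), without A6 1719 (598 and 1121) and without B2 1726 (592 and 1134). The difference of ratios was then called for 6059, 4560 and 4712 genes, against 7062. Among settings chosen after the data were seen, a dye term with line and clone terms gave 7250 (3234 and 4016). Keeping all spots in the background fit gave 1345 (879 and 466) and 4127 for the difference of ratios, and ended the calls of 43 of 71 named genes. Using clone 8's V6.5 channel for every clone gave 2158 higher. Of the 3543 calls, the deposited table shared 95% in the same direction, the fit with no dye term 72.3%, clone 8's V6.5 channel 65.9%, the same-dye comparison 56.8% (244 had the opposite sign there) and the fit with all spots 29.3%. Dnmt1 turned to -0.15 when compared in the same dye (adjusted p = 0.245); the cause was not tested. Of the 900 other values (named genes and list counts under each setting), 731 kept their direction and side of the threshold or, for list counts, stayed within 1.5 times. Of 71 named genes called, 33 stayed called without any 1 clone. No paired analysis was possible because each clone was read once beside V6.5 and the test is of a within-array ratio.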
